A study of Homo sapiens with 9 samples.

Results

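NRF2, encoded by NFE2L2, is the transcription factor that drives the antioxidant response, and the genes described here are NFE2L2 itself, its inhibitor KEAP1, and 7 genes named as antioxidant targets or, for SLC7A11-AS1, as the antisense partner of one. They were taken by Ensembl identifier from a list chosen with earlier results of these data known. They are 9 of the 60617 genes counted in each library. The libraries were RNA-seq of PC-3, an established human prostate cancer cell line, after 5 days of treatment. The 3 control libraries came from cells given vehicle only, the 3 decitabine libraries from cells given 1 µM of decitabine, and the 3 combination libraries from cells given 1 µM of decitabine together with 200 µM of S-adenosylmethionine (SAM). Decitabine is a nucleoside analogue that depletes DNA methyltransferases, and SAM is the methyl donor of these enzymes. The study asked what the combination does to these cells compared with the single agents. Libraries of cells given SAM alone were not analysed here. All groups are 1 cell line, and nothing in the labels says that the 3 libraries of a group came from separate cultures, so the p-values measure the spread between these libraries, which may be technical.

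In unstressed cells, KEAP1 holds NRF2 in the cytoplasm and hands it to a CUL3 ubiquitin ligase for degradation. Oxidants and electrophiles modify KEAP1, NRF2 then accumulates in the nucleus, pairs with a small MAF protein and binds antioxidant response elements in the promoters of its targets. These targets make glutathione, keep thioredoxin reduced, detoxify quinones and degrade heme. Because NRF2 is governed mainly by protein stability, its activity is usually read from its targets rather than from its own transcript.

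The binding element has a core that reads TGACNNNGC, and it was searched on both strands from 250 bases before to 50 bases after each RefSeq transcription start (GRCh38.p14). RefSeq promoter sequences were at hand for 7 of the 9 genes, in 10 windows, and were not used for HMOX1 and SLC7A11-AS1. The core occurred in 4 of these 10 windows, belonging to GCLM, TXNRD1 and KEAP1, and in 13.3% of all 35116 promoter windows. No window of these genes held TGACTCA, the AP-1 site, which 4.95% of all windows held. The stretches below show 120 bases before the start and the start base for 3 target genes that were higher in treated cells, chosen after their values were seen, with the core in capitals on whichever strand it lies, because they place the element relative to the start. The GCLM stretch lies at chr1:93909430-93909550 on the minus strand, the TXNRD1 stretch at chr12:104215659-104215779 on the plus strand and the GCLC stretch at chr6:53545101-53545221 on the minus strand. All are written 5′ to 3′ along the gene.
GCLM: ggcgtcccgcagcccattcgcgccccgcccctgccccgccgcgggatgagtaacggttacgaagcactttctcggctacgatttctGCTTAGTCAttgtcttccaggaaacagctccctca
TXNRD1: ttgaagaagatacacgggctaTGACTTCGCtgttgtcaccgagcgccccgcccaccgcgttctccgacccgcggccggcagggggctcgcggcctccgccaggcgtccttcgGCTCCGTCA
GCLC: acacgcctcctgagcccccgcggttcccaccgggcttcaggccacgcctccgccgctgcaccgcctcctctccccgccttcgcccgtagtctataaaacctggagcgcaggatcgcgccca

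In GCLM the core TGACTAAGC lay on the opposite strand with its middle at position -30 from the start. TXNRD1 held TGACTTCGC at position -95 and TGACGGAGC at position -4 of this start, and TGACAAAGC at position -98 of a second start. GCLC had no core in its window, nor had NFE2L2, NQO1 and SRXN1, and that says only that these letters are not in this stretch. A match to these letters is a description and does not show binding. The windows of these genes held between 12 and 46 CpG dinucleotides, the sites on which DNA methyltransferases act, against a median of 14 over all promoter windows.

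Of the 9 genes, all of which passed the filter on low counts, 4 were higher and 2 lower with decitabine than in the controls by edgeR's quasi-likelihood test at an adjusted p under 0.05. Over all 18532 genes tested, 36.3% were higher and 32.5% lower, so the share of these genes that changed was near that of the transcriptome. With the combination 5 were higher and 2 lower, against 35.9% and 31.3% of all genes. Between the combination and decitabine 2 were higher and 0 lower, against 7.67% and 8.02%. No gene was lower there at an unadjusted p under 0.05, nor with DESeq2 or with voom and limma. The median log2 fold change of the 9 genes was 0.10 with decitabine, 0.35 with the combination and 0.12 between them, beside 0.03, 0.05 and 0.00 over all genes. Their groups did not overlap in 6, 8 and 3 of the 9 genes, against 72.9%, 71.6% and 34.0% of all genes.

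Levels are given as CPM, the counts of a gene relative to the total of its library, scaled by TMM, edgeR's library normalization. Totals lay between 21934307 and 22489684 counts per library. The TMM factors were 0.895 to 0.902 in the controls and 1.03 to 1.08 in the treated libraries, so a control differs from a treated library in scale as well as in treatment. When library size was the only scaling, the transcriptome-wide median log2 fold change went from 0.03 to 0.28 for decitabine and from 0.05 to 0.27 for the combination. The share of calls that were higher then went from 52.7% to 70.3% and from 53.4% to 69.3%. Among markers of the line, KRT8, KRT18 and VIM were expressed in every library and the prostate secretory gene KLK3 had 0 counts. Of the markers of other cells, ALB (hepatocytes) was at or below 0.17 CPM in every library, PTPRC (leukocytes) stood at 0.05 to 0.10 CPM in the controls and at 0.57 to 1.27 CPM in the treated libraries, and PECAM1 (endothelium) stood at 9.78 to 10.3 CPM in the controls and 29.6 to 43.1 CPM in the treated libraries. The part of the scaling or of these markers in the results was not tested beyond the values given.

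**Figure D1:**
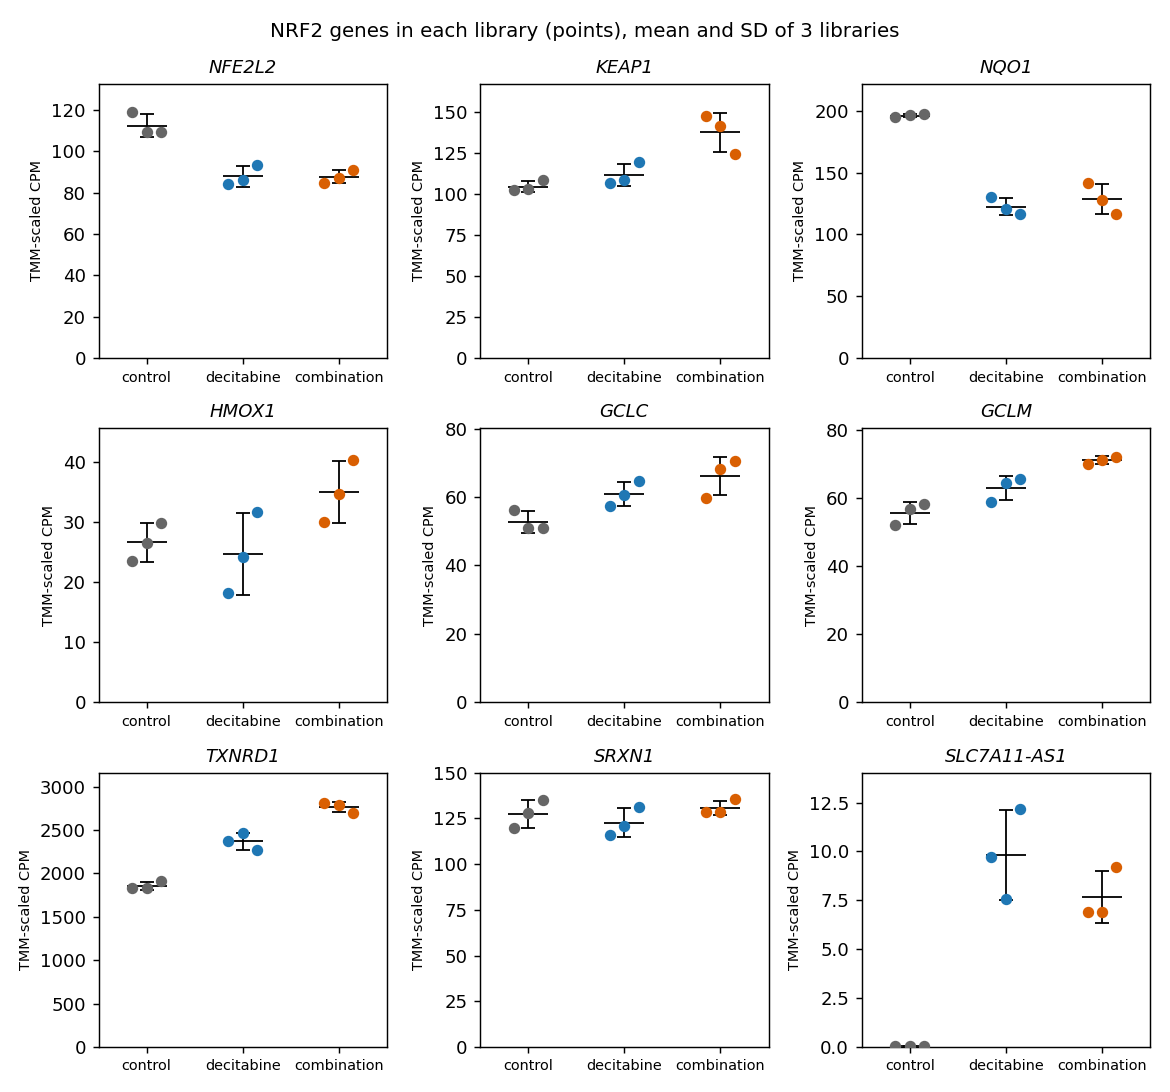
Each panel plots TMM-scaled CPM from 0 upward for 1 gene, with a point per library, a long bar for the mean and whiskers for the SD of 3 libraries. NQO1 stood apart from the controls in every treated library, TXNRD1 stepped up from control to decitabine to combination, and SRXN1 overlapped between the groups.

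NFE2L2, at chromosome 2 from 177218667 to 177392756 on the minus strand (GRCh38, GENCODE 44, as for all positions here), is the regulator of the set. It stood at 119, 109 and 109 CPM in the controls, at 84.2, 85.9 and 93.5 CPM with decitabine, and at 84.9, 87.3 and 91.2 CPM with the combination. All 3 control libraries were above all 6 treated libraries, and the treated groups overlapped. The mean fell from 113 ± 5.55 CPM to 87.9 ± 4.98 CPM under decitabine and 87.8 ± 3.18 CPM under the combination (SD, n = 3). The log2 fold change was -0.36 in either comparison, with a standard error of 0.07 and adjusted p-values of 3.7e-04 and 3.8e-04 by edgeR's quasi-likelihood test. Between the treatments it was 0.00 (standard error 0.07, edgeR adjusted p = 0.99). With library size alone as the scaling the changes were -0.11 and -0.14 and neither was called. In bulk RNA, a change in the share of cells that carry a transcript and a change in its amount per cell cannot be told apart.

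KEAP1, the adaptor that brings NRF2 to its ligase, lies on chromosome 19 from 10486125 to 10503558 on the minus strand. Its levels were 102, 103 and 108 CPM in the controls, 107, 109 and 119 CPM with decitabine and 147, 141 and 124 CPM with the combination. The combination libraries were above all others, while decitabine and control overlapped. Decitabine alone gave a log2 fold change of 0.10 (standard error 0.08, edgeR adjusted p = 0.28), which was called only with library size alone, at 0.34. With the combination KEAP1 rose from 104 ± 3.28 to 138 ± 11.9 CPM (SD, n = 3), a log2 fold change of 0.40 (standard error 0.08, edgeR adjusted p = 3.5e-04). It was also higher with the combination than with decitabine, by 0.30 on the log2 scale (standard error 0.08, edgeR adjusted p = 0.018). This last call was lost when the first or second library of either treated group was left out.

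The ratio of the regulator to its inhibitor was set out within each library, where scaling has no part. The log2 ratio of NFE2L2 to KEAP1 was 0.22, 0.09 and 0.01 in the controls, -0.34, -0.34 and -0.35 with decitabine, and -0.79, -0.69 and -0.45 with the combination. The 3 groups did not overlap. The mean ratio was lower by 0.45 with decitabine and by 0.75 with the combination than in the controls, and by 0.30 with the combination than with decitabine. An exact two-sided permutation test gave p = 0.1 for each, the smallest that 3 against 3 libraries allow, so the design cannot pass 0.05. Adjusted over the 6 tests of ratios, p was 0.2.

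NQO1, which reduces quinones by 2 electrons and so keeps them from cycling to radicals, lies on chromosome 16 from 69706996 to 69726668 on the minus strand. It is among the most used readouts of NRF2 activity. The controls held 195, 196 and 198 CPM, the decitabine libraries 130, 120 and 117 CPM, and the combination libraries 142, 128 and 117 CPM. Every treated library was below every control. NQO1 fell from 196 ± 1.52 CPM to 122 ± 6.86 CPM under decitabine and 129 ± 12.5 CPM under the combination (SD, n = 3). The log2 fold changes were -0.68 and -0.61 with standard errors of 0.08, and the edgeR adjusted p-values were 2.5e-06 and 7.8e-06. Both calls held in all 17 other fits without a fold threshold, and no difference between the treatments was called (0.07, standard error 0.08, edgeR adjusted p = 0.56).

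HMOX1, the inducible heme oxygenase, degrades heme to iron, carbon monoxide and biliverdin. It lies on chromosome 22 from 35380361 to 35394214 on the plus strand. Its levels were 23.5, 26.6 and 29.9 CPM in the controls, 18.1, 24.2 and 31.7 CPM with decitabine and 30.0, 34.8 and 40.4 CPM with the combination. The decitabine libraries spanned the whole control range and overlapped the combination, and the lowest combination library was just above the highest control. The log2 fold changes were -0.11 with decitabine (standard error 0.19, edgeR adjusted p = 0.63), 0.40 with the combination (standard error 0.19, edgeR adjusted p = 0.087) and 0.51 between the treatments (standard error 0.19, edgeR adjusted p = 0.097). None passed the test. The comparison of the combination with the controls passed in 7 of the alternatives, DESeq2 and library size alone among them, and its adjusted p ranged from 0.0016 to 0.081 over the 8 fits with another tool, scaling, filter, sample choice or block. The comparison between the treatments passed in 4, with DESeq2, a block on the replicate number, no filter, and without the third decitabine library. The block thus added both calls, at adjusted p = 0.0016 and 0.0024 in edgeR. The value with decitabine turned positive, to 0.14, with library size alone and to 0.06 without the first decitabine library.

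**Figure D2:**
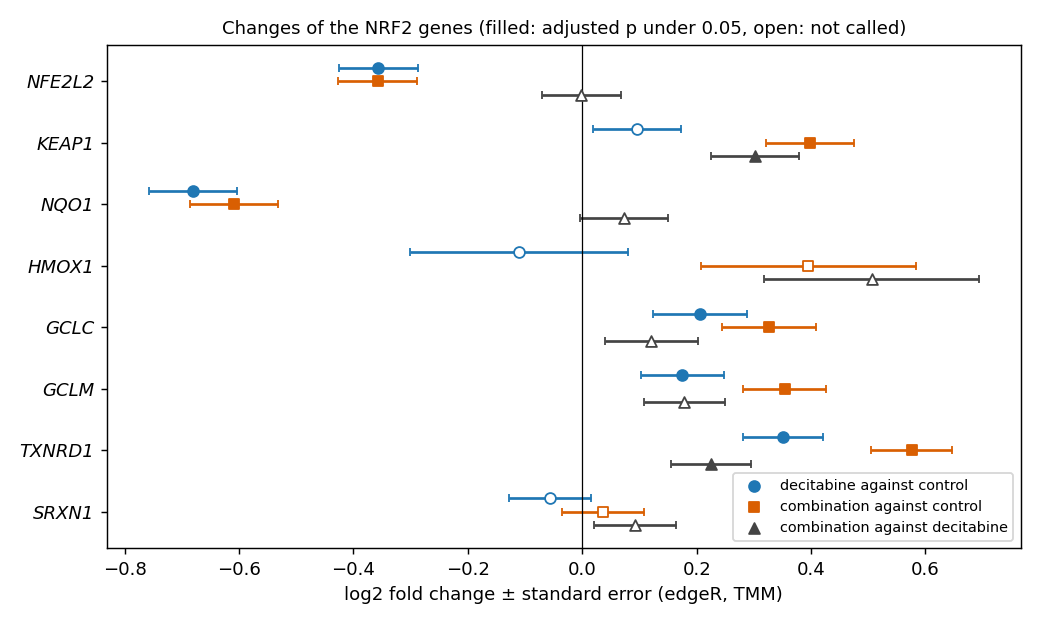
Points give the log2 fold change of 8 genes in the 3 comparisons, with whiskers of 1 standard error, filled where the edgeR adjusted p was under 0.05 and open elsewhere, and SLC7A11-AS1 is left out because its controls held 1 count each. NFE2L2 and NQO1 lie left of 0 with either treatment, and GCLC, GCLM and TXNRD1 lie right of it.

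GCLC and GCLM encode the catalytic and the modifier subunit of glutamate-cysteine ligase, the rate-limiting enzyme of glutathione synthesis. GCLC lies on chromosome 6 from 53497341 to 53616970 and GCLM on chromosome 1 from 93885199 to 93909456, both on the minus strand. GCLC stood at 56.3, 51.0 and 50.9 CPM in the controls, at 57.4, 60.6 and 64.5 CPM with decitabine and at 59.8, 68.1 and 70.5 CPM with the combination. All treated libraries were above all controls, and the treated groups overlapped. GCLM stood at 52.1, 56.8 and 58.2 CPM in the controls, at 58.9, 64.3 and 65.5 CPM with decitabine and at 70.1, 71.2 and 72.2 CPM with the combination. Here the 3 groups did not overlap.

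With the combination GCLC rose by 0.33 and GCLM by 0.35 on the log2 scale (standard errors 0.08 and 0.07, edgeR adjusted p = 0.0027 and 5.5e-04), and both calls held in all 17 other fits. With decitabine GCLC was higher by 0.21 (standard error 0.08, edgeR adjusted p = 0.037) and GCLM by 0.18 (standard error 0.07, edgeR adjusted p = 0.043). These were lost without the filter on low counts and in 5 and 6 of the 9 fits that left out 1 library. Between the treatments the values were 0.12 for GCLC (standard error 0.08, edgeR adjusted p = 0.34) and 0.18 for GCLM (standard error 0.07, edgeR adjusted p = 0.10), and neither was called. The log2 ratio of GCLM to GCLC, the balance of the subunit transcripts on a scale that ignores their lengths, differed by -0.03 between decitabine and control (exact two-sided permutation test, p = 0.9), by 0.03 between the combination and control (p = 0.8) and by 0.06 between the treatments (p = 0.6), with adjusted p = 0.9 for each.

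TXNRD1, the cytosolic thioredoxin reductase, is a selenoprotein that uses NADPH to keep thioredoxin reduced, and it lies on chromosome 12 from 104215779 to 104350307 on the plus strand. The controls held 1827, 1830 and 1914 CPM, the decitabine libraries 2371, 2463 and 2272 CPM, and the combination libraries 2807, 2793 and 2703 CPM. The groups formed 3 separate steps. TXNRD1 rose by 0.35 on the log2 scale with decitabine (standard error 0.07, edgeR adjusted p = 4.5e-04) and by 0.58 with the combination (standard error 0.07, edgeR adjusted p = 5.3e-06), both in every other fit without a fold threshold. The step from decitabine to the combination was 0.22 (standard error 0.07, edgeR adjusted p = 0.043). It lost its call with DESeq2's size factors, with only the 6 libraries compared, and in 8 of the 9 fits that left out 1 library, all but the one without the third combination library. EID3, which the annotation places inside TXNRD1 on the same strand, may share reads with it.

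SRXN1 encodes sulfiredoxin, which restores peroxiredoxins after they are over-oxidized, and lies on chromosome 20 from 646615 to 653200 on the minus strand. Its levels were 120, 128 and 135 CPM in the controls, 116, 121 and 131 CPM with decitabine and 128, 129 and 135 CPM with the combination. The 3 groups overlapped. The log2 fold changes were -0.06, 0.04 and 0.09, with standard errors of 0.07 and edgeR adjusted p-values of 0.51, 0.67 and 0.41. With library size alone it was higher in both comparisons with the control, by 0.19 (adjusted p = 0.037) and by 0.26 (adjusted p = 0.0076), and the first of these is a change of direction. A protein-coding gene without a symbol overlaps SRXN1 on the same strand. Noncoding RNAs without a symbol likewise overlap the spans of NFE2L2, KEAP1 and GCLC on the same strand. Whether reads are shared was not tested.

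**Figure D3:**
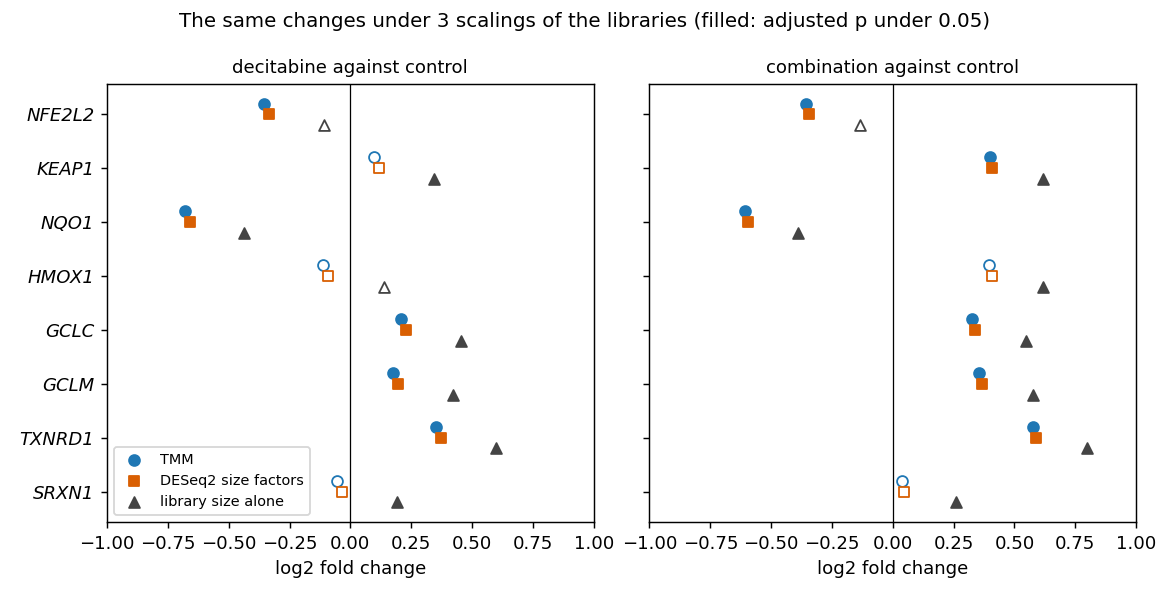
The log2 fold changes of the same 8 genes against the controls are plotted with TMM, with DESeq2's size factors and with library size alone, filled where the adjusted p was under 0.05. TMM and DESeq2's factors nearly coincide, and library size alone lies to the right of both for every gene, which takes NFE2L2 out of the calls in both comparisons and brings in SRXN1 in both, KEAP1 with decitabine and HMOX1 with the combination.

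SLC7A11-AS1 is a long noncoding RNA on the plus strand of chromosome 4, from 138057464 to 138178177, opposite to SLC7A11. SLC7A11 encodes the transport subunit of system xc-, which brings in cystine, from which the cysteine of glutathione is made, and it is a known NRF2 target. The antisense RNA had 1 count in each control library, 230, 179 and 287 counts with decitabine, and 159, 157 and 216 counts with the combination. It was all but absent from the controls and present in all 6 treated libraries. Relative to TMM-scaled library sizes, the ratio of treated to control counts was 198 with decitabine (95% interval 67.4 to 961) and 155 with the combination (52.7 to 753). These intervals cover counting error only. Both differences were called in every fit (edgeR adjusted p = 6.9e-10 and 1.5e-09). The treated groups overlapped at 7.55 to 12.2 CPM and 6.91 to 9.20 CPM, and the log2 fold change between them was -0.35 (standard error 0.17, edgeR adjusted p = 0.18).

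SLC7A11 went the other way. Its levels were 104, 75.2 and 68.3 CPM in the controls, 16.9, 21.7 and 24.8 CPM with decitabine and 19.1, 25.9 and 31.8 CPM with the combination. Every control was above every treated library. SLC7A11 fell by 1.96 on the log2 scale with decitabine and by 1.69 with the combination (standard errors 0.24, edgeR adjusted p = 1.2e-04 and 2.9e-04). The genes share 865 exonic bases on opposite strands, which are 14.04% of the exonic bases of the antisense RNA and 8.97% of those of SLC7A11. Whether counting used strand is not given in the sources used here, so reads from this shared stretch cannot be told apart.

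**Figure D4:**
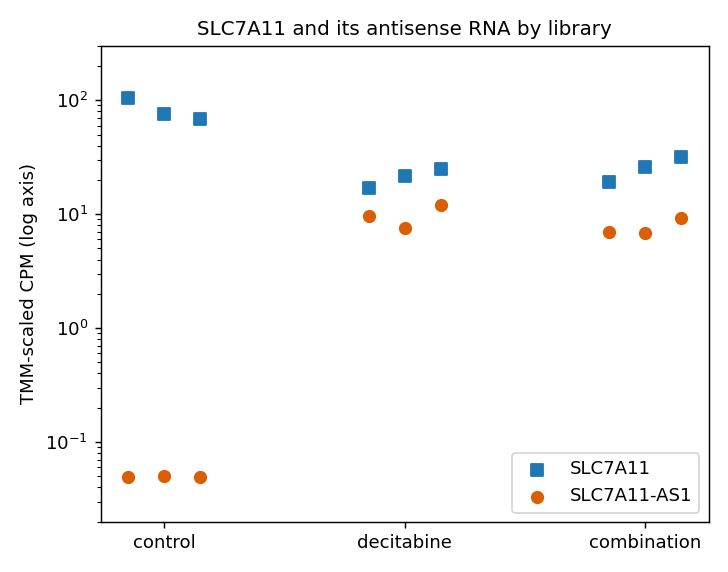
TMM-scaled CPM of SLC7A11 (squares) and SLC7A11-AS1 (circles) are plotted on a log axis, with a point per library. SLC7A11 is at 68.3 CPM or more in the controls and at 31.8 CPM or less in the treated libraries, and its antisense RNA moves from 1 count per library to 6.91 CPM or more.

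The rest of the pathway was followed in 9 lists, in which 103 genes were found in the files and 98 were tested. With decitabine 29 were higher and 44 lower, with the combination 33 and 37, and between the treatments 15 and 7. Over all genes tested the shares were 36.3% and 32.5%, 35.9% and 31.3%, and 7.67% and 8.02%, in the same order, and the counts of each list below stand beside these shares. The median log2 fold changes of the pathway genes were -0.11, -0.03 and 0.08, beside 0.03, 0.05 and 0.00 over all genes. The balance of directions was another with library size alone, where 41 were higher and 31 lower with decitabine, and 44 and 29 with the combination.

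Among the 17 tested genes that control NRF2 or share its binding sites, 7 were higher and 5 lower with decitabine and 5 and 4 with the combination. With library size alone they numbered 9 and 0, and 7 and 2. TRIM21, a ubiquitin ligase that acts on p62, rose from 7.39 ± 0.63 CPM to 81.4 ± 8.86 CPM under decitabine and 26.2 ± 10.8 CPM under the combination (SD, n = 3), so it was lower with the combination than with decitabine (log2 fold change -1.64, standard error 0.25, edgeR adjusted p = 0.0067). NFE2L3, a relative of NFE2L2, rose by 1.78 and 1.35 and was also lower with the combination than with decitabine (log2 fold change -0.43, standard error 0.08, edgeR adjusted p = 0.0052). MAFF, a small MAF partner, rose by 1.19 and 1.02. GSK3B, a kinase that marks NRF2 for degradation, fell by 0.35 and 0.36, and these calls were lost with library size alone. BACH2, a repressor related to BACH1, fell by 0.56 and 0.97, and PALB2 fell by 0.44 and 0.68, the first of each being lost with library size alone. Between the treatments 0 of the 17 were higher, also at an unadjusted p under 0.05, with DESeq2 and with voom and limma. The third gene called lower there was BACH1 (log2 fold change -0.40, standard error 0.12, edgeR adjusted p = 0.039), a call lost in 6 other fits.

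In the glutathione list of 13 genes, 3 were higher and 7 lower with decitabine, and 5 and 7 with the combination. The glutathione peroxidase genes split. GPX2, the gastrointestinal form and a known NRF2 target, had 1 count summed over the 3 controls, against 433 counts under decitabine and 655 under the combination. The ratios of 368 and 572 have 95% intervals of 65.8 to 14585 and 102 to 22619, for counting error only. GPX3, the secreted form, had 0 counts in the controls and 420 and 495 in the treated groups, at least 119-fold and 144-fold higher against a floor of 3 counts over the group. GPX4, which reduces lipid peroxides, rose with the combination (log2 fold change 0.52, standard error 0.08, edgeR adjusted p = 6.3e-05) and was not called with decitabine (0.19, edgeR adjusted p = 0.053). It was higher with the combination than with decitabine by 0.33 (edgeR adjusted p = 0.016), a call lost in 4 of the fits without 1 library. GPX8 fell by 0.85 and 0.98. GLRX, a glutaredoxin, fell by 0.68 and 0.78, and CHAC1, which degrades glutathione, by 0.46 and 0.89. GGT1 rose by 2.29 and 2.32 at levels of 3.51 CPM or less.

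Among 13 glutathione S-transferase genes, 3 were higher and 8 lower with decitabine, and 3 and 7 with the combination. GSTP1, which is often silenced by promoter methylation in prostate cancer, was expressed at 193 ± 12.3 CPM in the control PC-3 cells, at 100.3 ± 2.61 with decitabine and at 133 ± 21.8 with the combination (SD, n = 3). It fell by 0.94 and 0.54 and was higher with the combination than with decitabine by 0.40 (standard error 0.10, edgeR adjusted p = 0.017), a difference lost without the first or second library of either treated group. GSTK1 fell by 0.89 and 1.27, GSTZ1 by 0.79 and 1.30 and GSTM2 by 0.91 and 0.87. Between the treatments 3 genes of this list were higher, GSTP1, GSTO1 and MGST1, and 2 were lower. The calls of GSTO1 and MGST1 were lost in 7 and 4 other fits. Those lower with the combination were GSTZ1 (log2 fold change -0.52, edgeR adjusted p = 0.0039) and GSTK1 (-0.38, edgeR adjusted p = 0.0096). GSTZ1 kept its call in every other fit, and GSTK1 lost it only without the second combination library. GSTO2 rose by 1.54 and 1.76 while its neighbour GSTO1 fell by 0.83 and 0.52. GSTM1 rose by 3.11 and 2.89 from 0.12 ± 0.08 CPM, and its reads may be split with other GSTM genes of near-identical sequence.

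In the list of 14 thioredoxin and peroxiredoxin genes, 2 were higher and 8 lower with decitabine, and 3 and 7 with the combination. With library size alone they numbered 5 and 7, and 6 and 4, so for the combination the balance of directions turned around. TXN, thioredoxin, the substrate of TXNRD1, fell by 0.40 with decitabine (standard error 0.07, edgeR adjusted p = 2.5e-04, lost with library size alone). It was not called with the combination (-0.16, edgeR adjusted p = 0.071). PRDX3, the mitochondrial peroxiredoxin, fell by 1.14 and 1.24, PRDX2 by 0.86 and 0.57, and TXNRD3 by 0.70 and 0.92. SESN2, a stress-induced sestrin, fell by 1.72 and 2.09. TXNIP, which binds thioredoxin and blocks it, rose by 1.89 and 2.19, with decitabine libraries spread from 16.8 to 47.2 CPM. PRDX5 rose with the combination (0.25, edgeR adjusted p = 0.0060), and SESN3 rose by 0.38 and 0.75.

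NADPH, which feeds both TXNRD1 and NQO1, is supplied largely by the pentose phosphate pathway. Of 7 genes of NADPH supply, 0 were higher and 5 lower with decitabine, and 1 was higher and 5 lower with the combination. No gene was higher with decitabine at an unadjusted p under 0.05, with DESeq2 or with voom and limma, but 1 was higher with library size alone. TKT fell by 1.17 and 0.91, PGLS by 1.06 and 1.19, IDH1 by 0.99 and 0.89 and TALDO1 by 0.72 and 0.96.

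Among 18 genes of quinone, carbonyl and drug metabolism, 8 were higher and 5 lower with decitabine, and 9 and 3 with the combination. AKR1B1, aldose reductase, rose from 1.03 ± 0.20 to 14.9 ± 1.55 and 16.9 ± 0.44 CPM (SD, n = 3). EPHX1, microsomal epoxide hydrolase, rose by 0.63 and 1.08 and was higher with the combination than with decitabine by 0.45 (standard error 0.08, edgeR adjusted p = 0.0025). UGT1A6 rose by 2.53 and 2.85 from 0.38 ± 0.11 CPM, and it shares exons with the other UGT1A genes. NR0B1 had 0 counts in the controls and 33 and 46 in the treated groups, at least 9.36-fold and 13.4-fold higher. NQO2, the relative of NQO1, fell by 0.82 and 0.64, and PIR by 0.93 and 1.06. AKR1C2 fell from 3.97 ± 0.05 CPM to 0.99 ± 0.15 and 2.23 ± 0.61 CPM (SD, n = 3) under decitabine and the combination, and AKR1C1 fell by 0.99 on the log2 scale with decitabine. Both were higher with the combination than with decitabine, by 1.17 and 0.97 (edgeR adjusted p = 0.0073 and 0.0060). These AKR1C genes are close paralogs whose counts are uncertain.

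In the list of 7 heme and iron genes, 3 were higher and 3 lower with decitabine and 4 and 2 with the combination. FTL, ferritin light chain, rose from 586 ± 7.60 to 932 ± 171 and 1224 ± 43.4 CPM (SD, n = 3). FTH1, ferritin heavy chain, was not called with decitabine (-0.04, edgeR adjusted p = 0.76) and rose with the combination by 0.39 (edgeR adjusted p = 0.0039). Both ferritin genes have many processed pseudogenes, and their differences between the treatments (0.39 and 0.43, edgeR adjusted p = 0.022 and 0.014) were lost when some single libraries were left out. BLVRB and HMOX2 rose by 0.58 and 0.33 with decitabine and by 0.72 and 0.41 with the combination, while BLVRA fell by 0.70 and 0.54 and FECH, which inserts iron into heme, by 0.82 and 0.75. Of 6 ABC exporter genes, 2 rose with either treatment. With library size alone 3 were called higher with decitabine and 5 with the combination, and 0 lower with either. ABCG2 rose from 0.12 ± 0.16 to 7.19 ± 0.38 and 8.46 ± 1.16 CPM (SD, n = 3), and ABCC3 by 0.48 and 0.33. ABCC4 was lower with decitabine by 0.35, a call lost with library size alone, and higher with the combination than with decitabine by 0.38. Of the 3 superoxide and catalase genes tested, SOD3 rose by 1.83 and 1.71, SOD1 fell by 0.54 and 0.35, and CAT fell by 0.62 and 0.87.

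**Figure D5:**
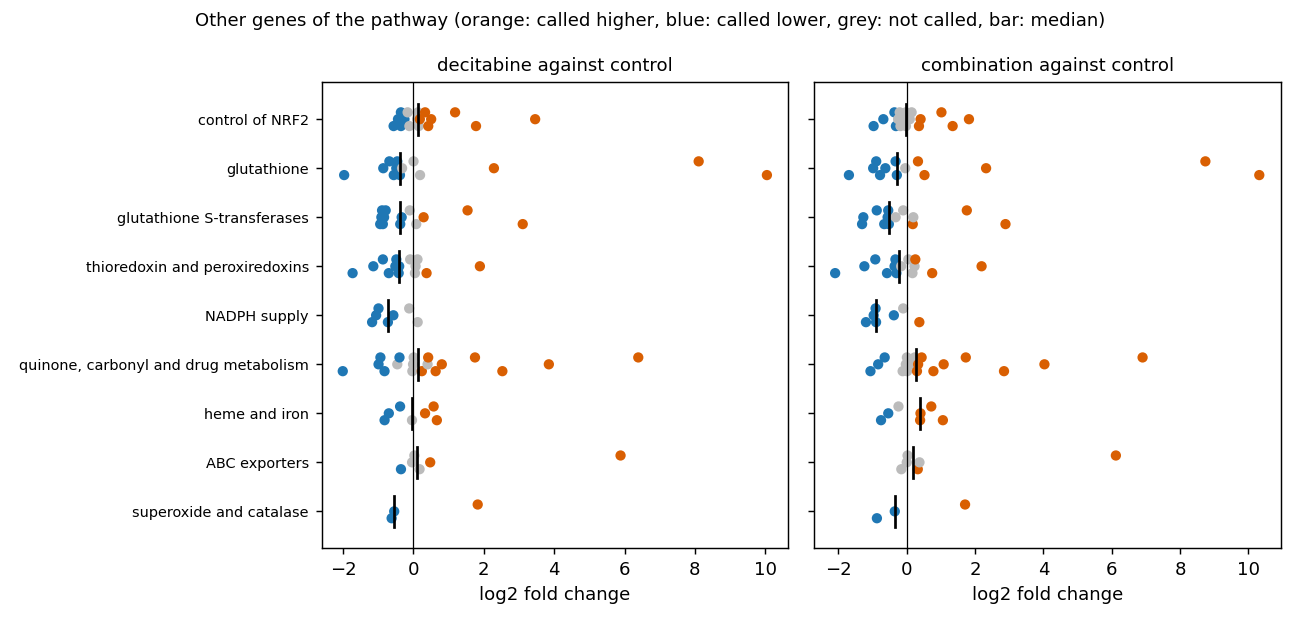
Each point is the log2 fold change of 1 gene of the 9 pathway lists against the controls, in orange where called higher, in blue where called lower and in grey elsewhere, with a bar at the median of each list. The NADPH genes lie mostly left of 0, and the farthest points to the right are genes with almost no control counts, whose fitted values depend on the prior count.

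Over the 11976 genes whose mean reached 5 CPM, likeness to a gene was measured as the root mean square difference of mean-centred log2 CPM over the 9 libraries. The genes most like NQO1 were ZC3H8, MRPS5 and SDHB, at 0.03 each. Those most like NFE2L2 were DNAJC5, VIRMA and ZMAT2 at 0.04 to 0.05, and those most like KEAP1 were MAD2L2, SLC25A17 and KMT5B, also at 0.04 to 0.05. HMOX1 had no gene closer than GPR157 at 0.12, followed by RRAGD and GEM at 0.13. None of these 12 genes is in the pathway lists.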

How the data were processed

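RNA-seq of PC-3 cells gave 9 libraries in 3 groups of 3, grouped by their labels. According to the study's methods and the labels, reads were trimmed with Trim Galore 0.6.4 and counted with kallisto on GRCh38.p13. The authors deposited estimated counts per Ensembl gene, with decimals and without normalization, in 1 table per library. The annotation release and the strand setting are not given in the sources used here. Deposited log2 CPM values were not used. Doses came from the study's methods.

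Estimated counts were rounded. After filterByExpr, 18532 genes remained and were fitted in edgeR 4.0.16 (R 4.3.3) with TMM factors, robust dispersions and a group mean each over all 9 libraries, and compared by the quasi-likelihood test. The Benjamini-Hochberg adjustment covered every tested gene, at a threshold of 0.05. Other tools were DESeq2 1.42.0 and voom with limma 3.58.1, the study's method. Other settings were library size alone or DESeq2's size factors as the scaling, a filter at a mean of 10 counts or none, a fit to the 6 libraries of a comparison, a block on the replicate number, a log2 fold change above 1, and leaving out each library. Libraries of a group were checked for copies over genes with at least 20 counts, with a chi-square of 5.86 to 23.5 per degree of freedom, and no copy was found.

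Lower bounds for genes at 0 in the controls used a floor of 3 counts over the group, and ratios over 1 to 3 control counts were given with a 95% interval, for counting error only. The common dispersion was 0.00977, at totals of 21934307 to 22489684 counts per library. Of 60617 identifiers, 60357 matched GENCODE 44, and SOD2 was not matched. The text names all 9 genes and the 3 genes most like NFE2L2, KEAP1, NQO1 and HMOX1. For each pathway list, up to 3 called genes with the largest changes in each direction and comparison were picked. Genes named from the lists come from these picks. Not every picked gene is named and not every call of a named gene is given, so a missing gene may still have been called. The genes and lists were chosen with earlier results of these data known. Scripts used scipy 1.17.1, numpy 2.4.6, pandas 2.3.3 and matplotlib 3.10.9 in Python 3.11.15. Some results on single genes of the lists are not reported here.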

Additional observations from a re-analysis of the deposited data

How the results depend on the processing

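Of the log2 fold changes of the 9 genes over the alternatives, 408 kept direction and side of the threshold, 29 lost a call, 13 gained one and 9 changed sign. With no filter NFE2L2 changed sign between the treatments (0.0080), and with library size alone HMOX1 and SRXN1 did so with decitabine (0.14 and 0.19). Where leaving out 1 library changed a sign, the log2 fold change ranged from -0.031 to 0.045 for NFE2L2 and from -0.0051 to 0.14 for NQO1 between the treatments, from -0.33 to 0.064 for HMOX1 with decitabine, and from -0.017 to 0.070 for SRXN1 with the combination. The log2 ratio of GCLM to GCLC ranged from -0.13 to 0.026 for decitabine and from -0.065 to 0.088 for the combination.

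Of the 9 genes, 2 were higher with decitabine with no filter, 2 to 4 when 1 library was left out, and 1 above a log2 fold change of 1, beside 4 as reported. With library size alone 6 were higher and 1 lower with decitabine, and 7 and 1 with the combination, beside 4 and 2, and 5 and 2, as reported. Those lower with either treatment numbered 0 above a log2 fold change of 1, where 1 was higher with the combination. Between the treatments 1 was higher with DESeq2's size factors or with a fit to the 6 libraries, 0 above a log2 fold change of 1, and 0 to 2 when 1 library was left out, the 0 without replicate 1 or 2 of either treated group. Of the pathway genes, above a log2 fold change of 1, 15 were higher and 6 lower with decitabine, 17 and 7 with the combination, and 1 and 1 between the treatments. Leaving out 1 library gave 4 to 27 higher and 3 to 9 lower between the treatments, the 27 without combination replicate 3 and the 4 without replicate 2 of either group. The cause was not tested.

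Same-numbered libraries correlated at -0.02 to 0.23, and 2 of 9 pairs passed 0.1. These joined decitabine and combination libraries of replicate 1 and of replicate 3, at 0.23 each. The crossed pairs, replicate 1 of either treated group with replicate 3 of the other, stood at -0.22. The main fit used no pairing, and the cause of these correlations was not tested. With the replicate number as a block, 6 genes were higher with the combination and 3 between the treatments, both gaining HMOX1. Depth limited SLC7A11-AS1, with 1 count per control library.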
